A study of Mus musculus with 6 samples.

Results

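The 10 genes described here, Insr, Irs1, Irs2, Pik3r1, Akt2, Tbc1d4, Slc2a4, Slc2a1, Slc2a3 and Pck1, code for the core of the insulin signal in fat cells, for 3 glucose transporters and for an enzyme that insulin represses. They were taken by name from a list, without regard to their values, and are 10 of the 32285 mouse genes counted in each library. The study profiled nuclei of subcutaneous white adipose tissue by droplet-based single-nucleus RNA sequencing, in 3 CKO libraries from GPSM1ΔTreg mice and 3 FLOX libraries from GPSM1f/f mice. By the name of the genotype, CKO mice lack Gpsm1, an activator of G-protein signalling, in regulatory T cells (Treg cells), while FLOX mice carry the loxP-flanked gene intact. Mice of both groups were fed high-fat chow, which the labels give as 12 weeks and the protocol as 5 to 12 weeks from an age of 7 weeks. The Cre driver is not named in the labels, nuclei were sorted on a DNA stain alone, and the adipocytes themselves were not the target of the deletion.

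Insulin binds its receptor on the adipocyte surface, and the receptor phosphorylates docking proteins that recruit phosphoinositide 3-kinase. The lipid this kinase makes activates Akt, and Akt releases the brake that holds vesicles of the glucose transporter GLUT4 inside the cell, so that GLUT4 moves to the surface and glucose enters. Insulin also lowers transcription of Pck1, an enzyme on the way to the glycerol 3-phosphate that fat cells use for re-esterifying fatty acids (glyceroneogenesis).

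Pck1 differed between the adipocyte states described further on and rose in CKO adipocyte-like nuclei, so the 250 bases before its annotated start are shown. They lie at chr2:173152823-173153072 on the plus strand (RefSeq, GRCm38.p6). The RefSeq start of the gene lies a little downstream of the GENCODE start given further on. The capitals mark TTACGTCA, which begins 93 bases before the start and has the letters of the cAMP response element known from the rat gene, the element through which cAMP raises its transcription.
Pck1: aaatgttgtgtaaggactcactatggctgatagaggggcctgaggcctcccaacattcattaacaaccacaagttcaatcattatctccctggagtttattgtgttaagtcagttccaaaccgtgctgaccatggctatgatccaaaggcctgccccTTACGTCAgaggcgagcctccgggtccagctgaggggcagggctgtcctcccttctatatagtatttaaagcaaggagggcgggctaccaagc
That search was chosen after the sequence was seen. On either strand, TTACGTCA was found in 0.499% of 32851 windows that ran from 250 bases before to 50 bases after a RefSeq gene start. Windows were at hand for 7 of the 10 members, and the FOXO core GTAAACA (3.65% of windows) and the DR1 element AGGTCANAGGTCA (0.0396%) were in none of them. The E-box CACGTG (7.15% of windows) was found in those of Irs1 and Irs2, 115 and 44 bases before the start. A match of letters is a description and not a measured binding site.

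After filtering, 9729, 9416 and 9358 nuclei remained in CKO libraries 1, 2 and 3, against 9296, 9113 and 9314 in FLOX libraries 1, 2 and 3, of 65162 deposited barcodes in all. The kept CKO libraries held 33200406 to 35522426 UMIs (unique molecular identifiers, each a counted RNA molecule), fewer than the 40814518 to 48605464 UMIs of the FLOX libraries. Libraries shared 17 to 35 barcodes per pair, at most 0.384% of the smaller library. Clusters of nuclei were named by marker genes, and "like" marks such names. B-cell-like nuclei were 38.7, 12.4 and 19.6% of CKO libraries and 2.02, 1.04 and 5.08% of FLOX libraries, and T-cell-like nuclei were 13.4, 4.05 and 8.15% and 2.13, 1.10 and 1.77%. Gpsm1 itself had 38.3, 38.4 and 33.8 UMIs per 1000000 UMIs (CPM) in whole CKO libraries and 27.1, 30.9 and 24.0 CPM in whole FLOX libraries (p = 0.1 in an exact permutation test, two-sided, the lowest value possible for 3 against 3). In T-cell-like nuclei it had 20.0, 22.1 and 19.7 CPM in CKO, from 91 UMIs in all, against 31.3, 45.6 and 21.3 CPM in FLOX, from 24 UMIs, and the groups overlapped. The deleted exons are not given, a 3′ tag of the gene may still be counted after deletion, and Treg cells are only part of the T-cell-like nuclei, so these values do not check the genotype.

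Adipocyte-like nuclei numbered 13234 and held Adipoq at 209 CPM, against 18.4 to 67.4 CPM in the other tested classes. They fell into 3 large clusters, called states 1, 2 and 3 here, and a small one of 70 nuclei that was not tested alone. The 10 members and the other genes of the pathway were kept out of the genes used for clustering. State 1 (5153 nuclei, led by Pck1 and, members aside, by Cfd, Fam13a and Ces1f) was the shallowest, with a median of 4837 UMIs per nucleus. State 2 (4567 nuclei, led by Gabrr2, Rgs7 and Plagl1) had a median of 9842 UMIs, and state 3 (3444 nuclei, led by Mageb18, Pnpla3 and Ptchd4) had 12522 UMIs. The members' levels were summed per library within each of the 3 states and the 9 other tested classes, and the orders below are over these 12. The levels are means of the 6 libraries in CPM with the SD over these libraries. They are given in order within each gene, since in 3′ counts of nuclear RNA a longer gene is not measured on the same footing as a shorter one.

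Insr (chr8:3122061-3279617, minus strand, mm10), the insulin receptor, was highest in the adipocyte states, at 832 ± 68.9 CPM in state 1, 668 ± 35.0 CPM in state 2 and 624 ± 39.0 CPM in state 3. State 1 lay above state 2, and state 2 above state 3, within each of the 6 libraries. Every library of each state lay above every library of the endothelial-like nuclei (379.8 ± 86.5 CPM), which overlapped with macrophage-like (319.6 ± 30.4 CPM) and mural-like nuclei (305 ± 55.4 CPM). Adipose stem and progenitor cell-like (ASPC-like) nuclei had 235 ± 11.2 CPM and overlapped with B-cell-like (217 ± 35.0 CPM) and monocyte-like nuclei (216 ± 24.4 CPM). T-cell-like (161 ± 20.4 CPM), dendritic-like (122 ± 50.5 CPM) and NK-like nuclei (58.6 ± 22.6 CPM) were lowest, each overlapping with its neighbour.

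The docking proteins carry the signal from the receptor to the kinase, and the 2 measured here differed in where they were found. Irs1 (chr1:82233101-82291416, minus) was highest in state 1, at 391.5 ± 83.1 CPM, which lay above the mural-like level (276 ± 68.9 CPM) in all 6 libraries. Mural-like nuclei, state 3 (252 ± 50.5 CPM), state 2 (237 ± 40.6 CPM) and ASPC-like nuclei (224 ± 39.4 CPM) overlapped with each other, and in every other tested class Irs1 averaged at most 26.6 CPM, with 0.590 ± 1.44 CPM in dendritic-like nuclei. Irs2 (chr8:10984681-11008458, minus) had 177 ± 42.0 CPM in state 1 and 175 ± 30.5 CPM in state 3, and state 1 was the higher in 3 of 6 libraries. State 2 had 124 ± 24.3 CPM, below state 3 within all 6 libraries. Irs2 was also found at 71.5 ± 24.7 CPM in mural-like, 45.9 ± 7.47 CPM in ASPC-like and 33.8 ± 8.55 CPM in B-cell-like nuclei, and was lowest in endothelial-like nuclei at 4.23 ± 3.05 CPM. Exons of Irs1, Irs2 and Slc2a1 overlap an annotated gene on the opposite strand (Gm9747, 9530052E02Rik and Gm12868), and whether counting used strand is not given in the sources used here, so the counts of these 3 genes may include their partners.

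Pik3r1 (chr13:101680563-101768217, minus) codes for the regulatory subunit p85α of phosphoinositide 3-kinase and was the least restricted of the 10. Its level was 664 ± 101 CPM in mural-like nuclei, 470.2 ± 144 CPM in state 1, 465 ± 156 CPM in NK-like nuclei, 408 ± 59.8 CPM in state 3, 384 ± 43.9 CPM in ASPC-like nuclei and 380.5 ± 33.5 CPM in state 2. Neighbours in this order overlapped, and mural-like nuclei lay above state 1 in 4 of 6 libraries. The order went on with dendritic-like (311 ± 108 CPM), T-cell-like (309 ± 46.1 CPM), macrophage-like (235 ± 31.2 CPM), B-cell-like (224 ± 21.6 CPM) and monocyte-like nuclei (191 ± 36.9 CPM), again with overlaps, and ended with endothelial-like nuclei at 132 ± 11.1 CPM.

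Akt2 and Tbc1d4 stand further down the signal. Akt2 (chr7:27591552-27640826, plus), the Akt kinase known for insulin-stimulated glucose uptake, had 224 ± 19.8 CPM in state 1, 162 ± 14.7 CPM in state 3 and 142 ± 10.2 CPM in state 2, an order kept within all 6 libraries. Every library of every state lay above every library of the other 9 classes, which ran from 26.7 ± 9.93 CPM (mural-like) to 48.2 ± 14.2 CPM (B-cell-like), each overlapping with its neighbour in the order. Tbc1d4 (chr14:101442360-101609191, minus), also called AS160, is the Akt substrate that holds GLUT4 vesicles back. It was highest in macrophage-like nuclei, at 404 ± 59.8 CPM, and the lowest of those libraries (348 CPM) lay above the highest of state 3 (344 CPM). State 3 had 292 ± 45.1 CPM and lay above state 1 (254 ± 38.7 CPM) within all 6 libraries, and states 1 and 2 (207 ± 16.9 CPM) overlapped with dendritic-like nuclei (218 ± 78.0 CPM). Tbc1d4 was lower in ASPC-like (113 ± 15.2 CPM), T-cell-like (90.0 ± 34.5 CPM), endothelial-like (84.3 ± 8.37 CPM) and mural-like nuclei (54.6 ± 24.0 CPM), and was at most 13.8 CPM on average in monocyte-like, B-cell-like and NK-like nuclei.

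The 3 transporters had different places. Slc2a4 (chr11:69942539-69948188, minus), which codes for the insulin-responsive GLUT4, was found in mural-like nuclei (83.0 ± 18.3 CPM) and the adipocyte states (59.6 ± 10.9 CPM in state 1, 39.3 ± 6.49 CPM in state 3, 23.9 ± 4.51 CPM in state 2). Mural-like nuclei lay above state 1 in 5 of 6 libraries, and the order of the states held within all 6. Elsewhere it averaged at most 5.73 CPM, with no UMI among the 813009 of dendritic-like nuclei, which allows a level of up to 3.69 CPM (3 counts, counting error only). Slc2a1 (chr4:119108711-119137983, plus), the basal transporter GLUT1, was lowest in ASPC-like nuclei (1.96 ± 0.520 CPM) and the states (2.98 ± 1.27 CPM in state 3, 2.73 ± 0.758 CPM in state 1, 2.50 ± 0.659 CPM in state 2). It averaged 34.0 ± 34.9 CPM in NK-like, 30.3 ± 16.1 CPM in B-cell-like, 14.6 ± 10.3 CPM in T-cell-like, 13.4 ± 7.45 CPM in monocyte-like and 12.3 ± 4.03 CPM in endothelial-like nuclei, each overlapping with its neighbour in that order, and 5.14 to 6.44 CPM in the other 3 classes. Slc2a3 (chr6:122727809-122801640, minus), the high-affinity transporter GLUT3 known from neurons and leukocytes, was highest in NK-like (134 ± 33.4 CPM) and T-cell-like nuclei (105 ± 22.0 CPM), followed by state 1 (82.8 ± 30.0 CPM). The states differed 6.11-fold, since state 2 had 31.2 ± 20.4 CPM and state 3 had 13.6 ± 7.73 CPM, and state 1 lay above state 2, and state 2 above state 3, within all 6 libraries. Between them fell dendritic-like (53.2 ± 26.6 CPM), B-cell-like (46.2 ± 10.4 CPM), ASPC-like (29.4 ± 6.73 CPM), macrophage-like (28.7 ± 7.62 CPM) and mural-like nuclei (20.2 ± 14.1 CPM), and monocyte-like (5.72 ± 6.41 CPM) and endothelial-like nuclei (4.27 ± 1.27 CPM) were lowest.

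Pck1 (chr2:173153048-173159273, plus) codes for the cytosolic phosphoenolpyruvate carboxykinase and had 1675 ± 213 CPM in state 1, 576 ± 105 CPM in state 3 and 383 ± 62.4 CPM in state 2. State 1 was 4.38-fold above state 2 and 2.91-fold above state 3, the 6 libraries of state 1 lay above all those of state 3, and state 3 lay above state 2 within each library. The other 9 classes had 15.9 to 41.7 CPM of Pck1, beside 18.4 to 67.4 CPM of the adipocyte marker Adipoq, and the ratio of Pck1 to Adipoq ran from 0.430 to 1.43 in them, against 2.55 to 5.35 in the states. The part of free adipocyte RNA in these low levels was not tested. The level order of the states was thus 1, 2, 3 for Insr and Slc2a3 and 1, 3, 2 for Akt2, Slc2a4 and Pck1, while Tbc1d4 was highest in state 3.

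**Figure D1:**
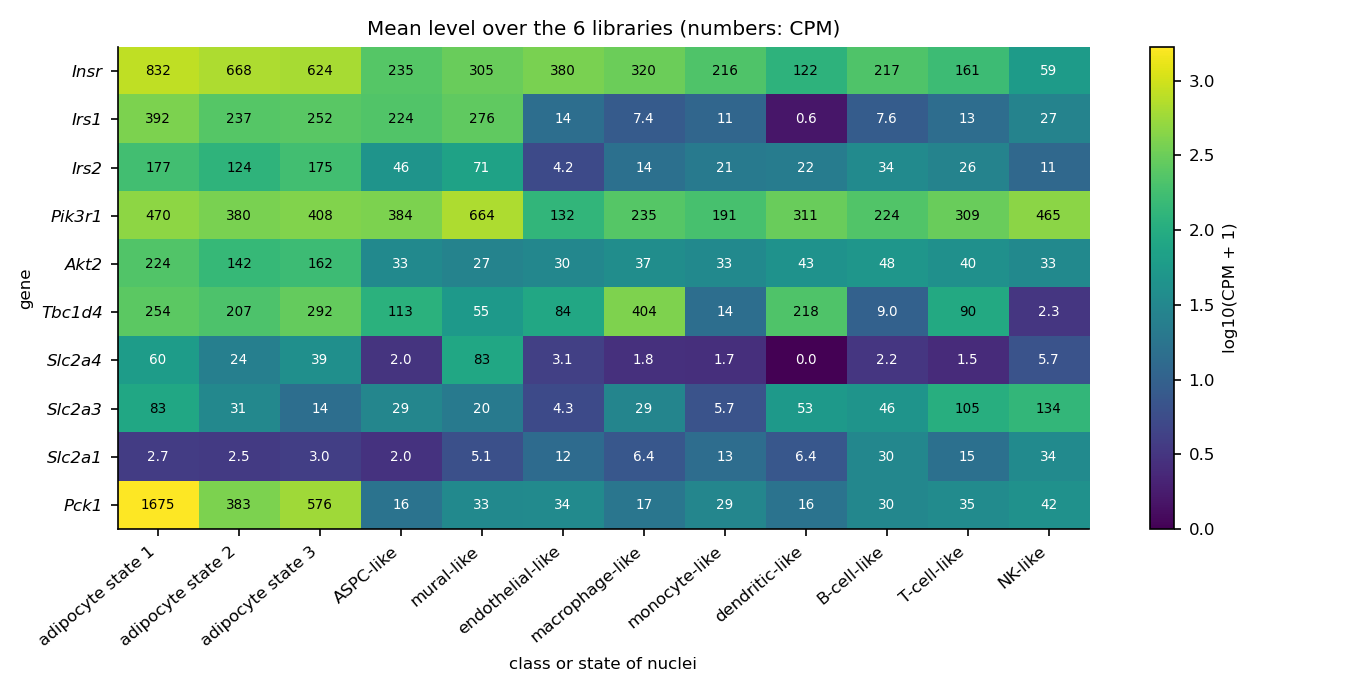
Mean level of each gene (rows) over the 6 libraries in each adipocyte state and tested class (columns), printed as CPM and coloured by log10(CPM + 1). Akt2 and Pck1 stand out in the 3 adipocyte columns, Slc2a4 in these and the mural-like column, and Slc2a3 in the NK-like and T-cell-like columns.

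Within adipocyte-like nuclei, 3 of the 10 genes rose in CKO libraries and none fell: the GLUT4 gene Slc2a4 (1.53-fold), the GLUT3 gene Slc2a3 (3.19-fold) and Pck1 (1.83-fold). The receptor, both docking proteins, the kinase subunit, Akt2, Tbc1d4 and Slc2a1 did not pass the test. The test was edgeR's quasi-likelihood test on the summed UMIs of 3 against 3 libraries, with Benjamini-Hochberg adjustment over 15787 genes and a threshold of 0.05, by which 1.11% of all genes tested were higher, 1.39% lower and 2.5% changed in either direction. The class held 1336, 2605 and 2198 nuclei in CKO libraries and 2292, 2848 and 1955 in FLOX libraries, with 14544556 to 17719779 UMIs and 21750088 to 31482149 UMIs.

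Slc2a4 had 46.5, 52.9 and 45.2 CPM in CKO libraries 1, 2 and 3, against 31.7, 30.0 and 28.5 CPM in FLOX libraries 1, 2 and 3. All CKO libraries lay above all FLOX libraries (48.2 ± 4.10 against 30.1 ± 1.58 CPM; SD, n = 3 each), and the log2 fold change was 0.61 (SE 0.0883, adjusted p = 0.0252). Slc2a3 had 40.8, 57.6 and 85.1 CPM in CKO and 13.5, 18.1 and 23.5 CPM in FLOX. Its groups did not overlap either, although CKO library 3 had the highest level and library 1 the lowest, and the log2 fold change was 1.67 (SE 0.2997, adjusted p = 0.0404). Pck1 had 922, 1063 and 1160.3 CPM in CKO and 508, 489 and 645 CPM in FLOX. The lowest CKO library lay well above the highest FLOX library, with a log2 fold change of 0.87 (SE 0.137, adjusted p = 0.0304).

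Of the 7 members that did not pass, Irs2 and Akt2 also had groups that did not overlap. Irs2 had 168, 175 and 179.6 CPM in CKO and 165, 104 and 156 CPM in FLOX (log2 fold change 0.23, SE 0.169, adjusted p = 0.451), and FLOX library 2 stood lowest. Akt2 had 197, 179.6 and 175 CPM in CKO and 159.9, 147 and 173 CPM in FLOX (0.13, SE 0.0869, adjusted p = 0.394). In all 5 of the 10 members had CKO libraries above FLOX libraries without overlap and none the reverse, in a class where 21.5% of all genes tested did so upwards and 9.14% downwards. Insr had 650.1, 706 and 767 CPM in CKO and 665, 628 and 729 CPM in FLOX, so its groups overlapped almost wholly (0.00, SE 0.1004, adjusted p = 0.999). Irs1 had 248, 364 and 221 CPM in CKO and 271, 264 and 329 CPM in FLOX, and Pik3r1 had 334, 526 and 386 CPM in CKO and 349, 419.9 and 475 CPM in FLOX. For both genes CKO library 2 was the highest of all 6. Tbc1d4 had 228, 285 and 237 CPM in CKO and 200.3, 265 and 285 CPM in FLOX. Slc2a1 stayed low, with 3.78, 3.05 and 1.901 CPM in CKO and 2.25, 2.95 and 2.25 CPM in FLOX. The log2 fold changes of these last 4 genes lay between -0.12 and 0.15, and the median over the 10 members was 0.14, beside 0.02 over all genes tested in the class.

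**Figure D2:**
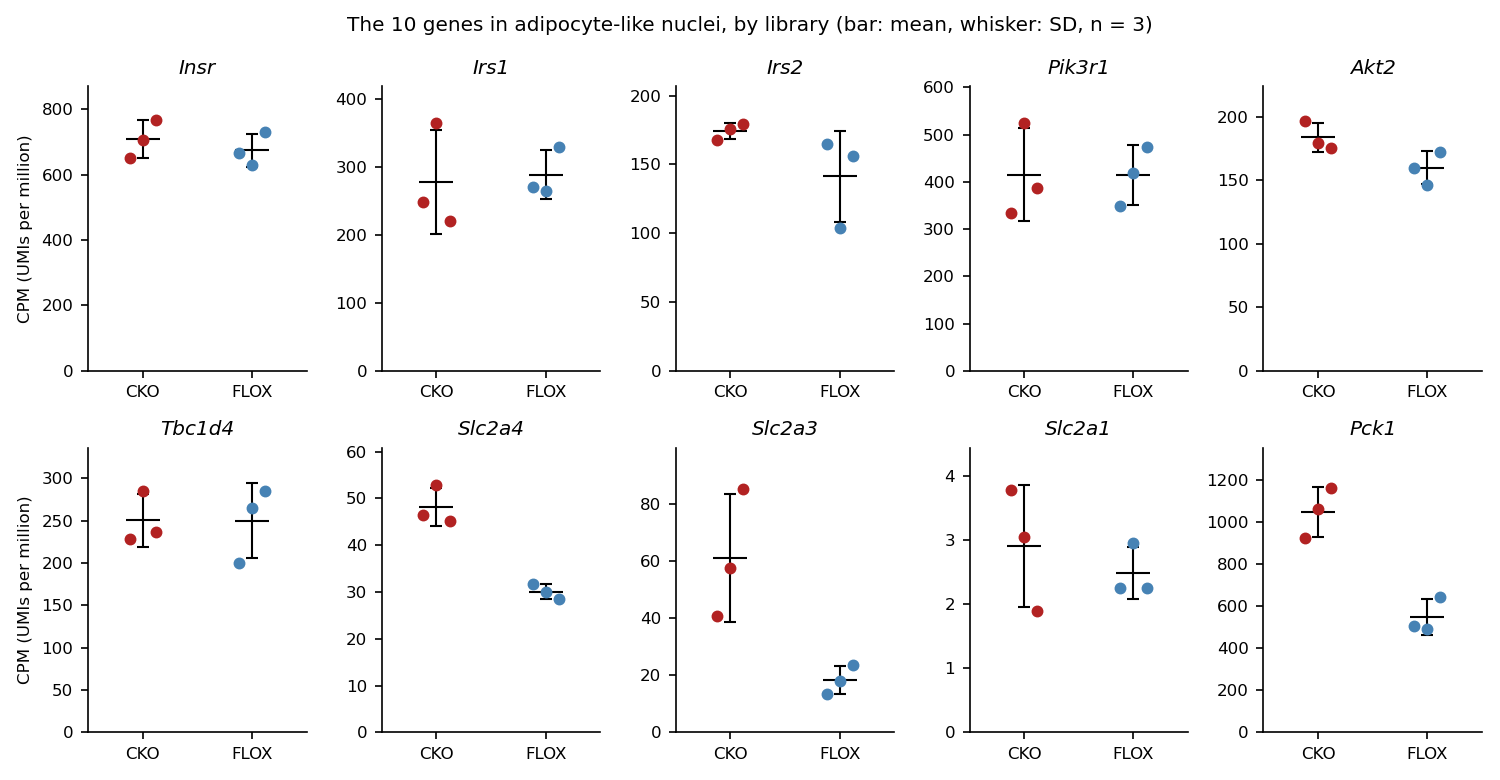
Level in CPM of each gene in adipocyte-like nuclei, 1 point per library, CKO libraries left of FLOX libraries, with the mean (bar) and SD (whisker, n = 3). Slc2a4, Slc2a3 and Pck1 show separate groups, as do Irs2 and Akt2 more narrowly, and the other 5 genes overlap.

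The calls rested on few libraries. Left out in turn, CKO library 2 or 3 or FLOX library 1 or 2 ended all 3 calls, and FLOX library 3 ended that of Slc2a3. In those 4 fits 0 to 2 of all genes tested were called. With each library left out in turn, the adjusted p ranged from 0.0271 to 0.0903 for Slc2a4, from 0.0274 to 0.131 for Slc2a3 and from 0.0230 to 0.113 for Pck1. The fold changes themselves kept their direction in all 6 of these fits, with log2 values of 0.54 to 0.65, 1.35 to 1.898 and 0.78 to 0.998. Over all 19 alternatives tried, Slc2a4 passed in 11, Slc2a3 in 9 and Pck1 in 12, and all 3 were higher in CKO in every alternative.

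**Figure D3:**
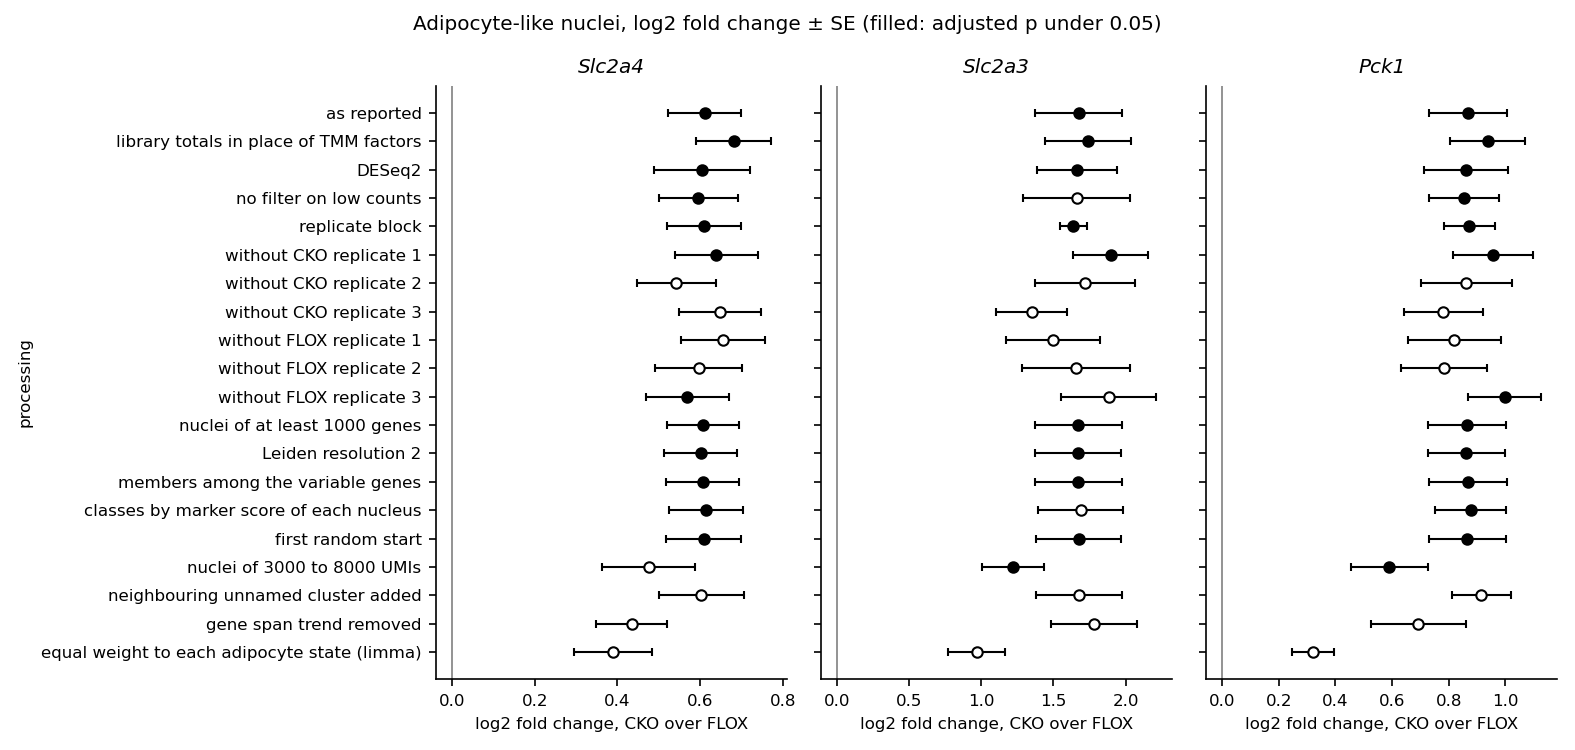
Log2 fold change of CKO over FLOX (± SE) in adipocyte-like nuclei for Slc2a4, Slc2a3 and Pck1, as reported (top) and under 19 other ways of processing. Filled points passed the adjusted threshold of 0.05, and all points lie right of 0.

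Several measured features moved with these 3 genes. Genes of short span tended to be higher in CKO adipocyte-like nuclei: across 15779 genes the Spearman correlation of log2 fold change with span was -0.37, which describes genes of the same 6 libraries. Slc2a4 spans 5.65 kb and Pck1 6.23 kb, and the 4238 tested genes under 10 kb had a median log2 fold change of 0.19, with 2.27% of them called higher. Slc2a3 spans 73.8 kb. With the trend over span removed from each library, the log2 fold changes were 0.43 for Slc2a4 (adjusted p = 0.0752), 1.78 for Slc2a3 (adjusted p = 0.0642) and 0.69 for Pck1 (adjusted p = 0.111).

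Markers of other cell types were also measured inside the adipocyte-like nuclei. All 10 adipocyte markers were detected, with a summed level of 9358, 9659 and 9978 CPM in CKO and 7695, 7361 and 7765 CPM in FLOX. All 9 T-cell markers were detected, at 24.5, 6.60 and 18.1 CPM in CKO and 6.08, 6.73 and 13.3 CPM in FLOX, and all 7 NK markers at 0.613 to 3.71 CPM in CKO and 0.828 to 3.65 CPM in FLOX. All 9 B-cell markers were detected at 65.7 to 137 CPM in CKO and 55.4 to 76.0 CPM in FLOX, and all 8 mural markers at 36.1 to 76.0 CPM in CKO and 81.3 to 104 CPM in FLOX. All 5 plasma-cell markers were at 9.01 to 34.3 CPM in CKO and 4.96 to 6.69 CPM in FLOX. Of all 18 lists other than the adipocyte one, 7 had CKO libraries above FLOX libraries without overlap, 2 had them below (mural and endothelial) and 9 overlapped. Those above were plasma cells, ASPC (401 to 518 CPM in CKO and 335 to 386 CPM in FLOX), glia (99.97 to 103 CPM and 84.2 to 92.9 CPM), lymphoid stroma (10.49 to 13.3 CPM and 6.07 to 6.25 CPM), lymphatic endothelium, mesothelium and epithelium. The mesothelial marker Bnc1 was the only marker at 0, and the part of these cell types in the result was not tested.

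The 3 states made up different shares of adipocyte-like nuclei in the 2 groups. State 1 held 49.3, 62.8 and 62.1% of them in CKO libraries and 17.8, 18.8 and 28.1% in FLOX libraries. State 2 held 24.9, 17.5 and 23.8% in CKO and 53.7, 45.3 and 37.5% in FLOX, and state 3 held 23.1, 19.5 and 13.6% in CKO and 28.4, 35.96 and 33.5% in FLOX. The groups overlapped for none of the 3. No test is given for these shares, since the genes that set the states apart may themselves differ between the groups. State 1, the largest in CKO, was also the state with the highest level of Slc2a4, Slc2a3 and Pck1 in all 6 libraries.

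Within single states none of the 10 members passed the test, in either direction. By the same test 0.041% of 12201 genes were called in state 1, 0.193% of 13474 in state 2 and 0.161% of 13650 in state 3. Slc2a3 had 86.4, 99.7 and 133 CPM in state 1 of CKO libraries against 54.6, 61.2 and 62.0 CPM in FLOX libraries (log2 fold change 0.82, SE 0.166, adjusted p = 0.131). In state 2 it had 23.1, 45.2 and 66.4 CPM in CKO against 13.1, 19.9 and 19.8 CPM in FLOX (1.36, SE 0.378, adjusted p = 0.238), and in state 3 it had 16.7, 17.6 and 25.2 CPM against 4.33, 7.07 and 10.4 CPM (1.40, SE 0.305, adjusted p = 0.168). All CKO libraries lay above all FLOX libraries in each of the states, where 10.3, 10.9 and 12.3% of all genes tested in states 1, 2 and 3 did so (6.91, 7.69 and 6.85% the reverse).

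Pck1 had smaller log2 fold changes within states than in the class as a whole. It had 1724, 1861 and 1973 CPM in state 1 of CKO libraries against 1536, 1434 and 1523 CPM in FLOX libraries (0.28, SE 0.118, adjusted p = 0.371). In state 2 it had 362, 419 and 481 CPM in CKO against 374, 295 and 364 CPM in FLOX (0.27, SE 0.139, adjusted p = 0.467), with overlap. In state 3 it had 756, 573 and 630.0 CPM in CKO against 471, 488 and 540.1 CPM in FLOX (0.35, SE 0.114, adjusted p = 0.298). Slc2a4 had 72.0, 72.6 and 61.8 CPM in state 1 of CKO libraries against 53.3, 49.8 and 47.9 CPM in FLOX libraries (0.43, SE 0.116, adjusted p = 0.184), and its log2 fold changes were 0.28 in state 2 (adjusted p = 0.509, with overlap) and 0.33 in state 3 (adjusted p = 0.324).

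When each state was given the same weight in every library, the level of Pck1 was 947, 951 and 1028 CPM in CKO and 794, 739 and 809 CPM in FLOX, a log2 difference of 0.32 in limma on log2(CPM + 1) (adjusted p = 0.156), where the pooled class gave 0.87. For Slc2a4 it was 46.9, 49.5 and 43.1 CPM in CKO and 38.4, 35.3 and 32.2 CPM in FLOX (0.39, adjusted p = 0.156). For Slc2a3 it was 42.0, 54.2 and 74.8 CPM in CKO and 24.0, 29.4 and 30.7 CPM in FLOX (0.97, adjusted p = 0.152). The groups of all 3 genes stayed apart, at smaller differences than in the pooled class. The share of all genes whose groups were apart under this weighting was not measured.

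No member passed a test of whether the genotype difference was unequal between the 3 states (edgeR interaction term with library as a block, adjusted p of 0.461 or more, 0.22% of 14077 genes called). The log2 fold change of Slc2a3 was 0.48 larger in state 2 and 0.60 larger in state 3 than in state 1 (adjusted p = 0.515). Without CKO library 1, Slc2a3 passed in state 1 (0.95, adjusted p = 0.0102) and in state 2 (1.67, adjusted p = 0.0437), where no state had a call with all libraries. The number of all genes called in those fits is not given here.

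**Figure D4:**
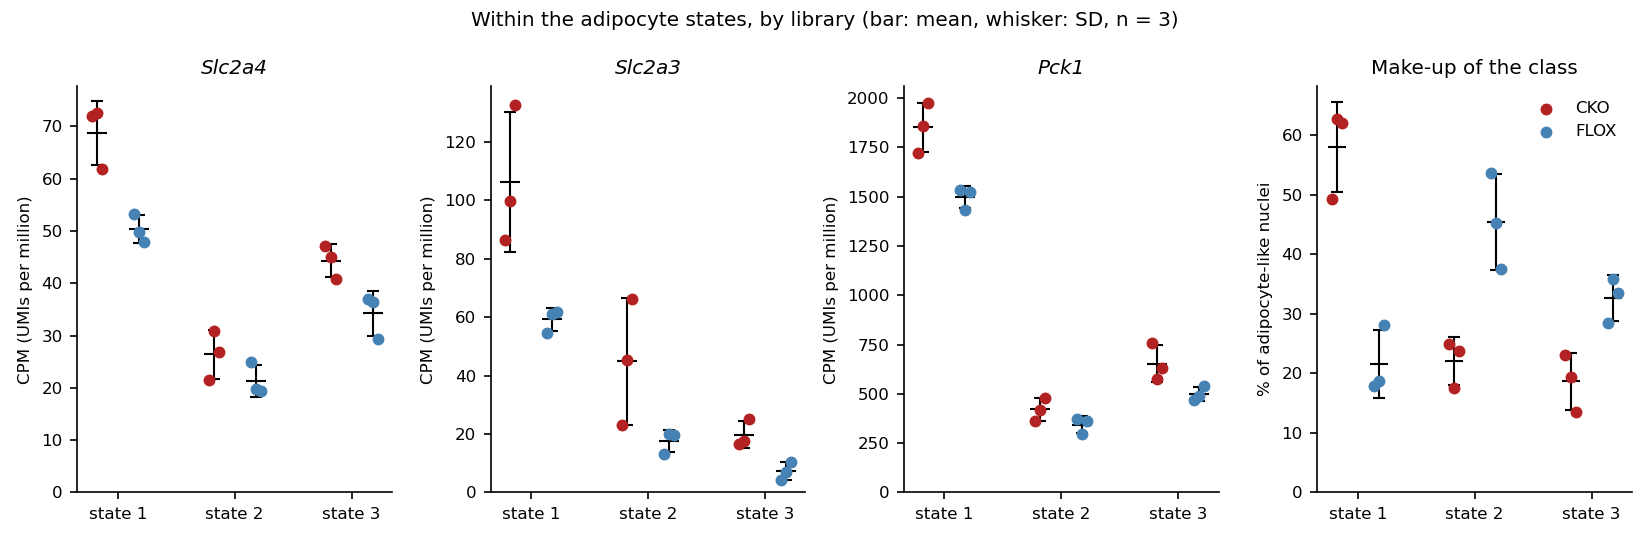
Level in CPM of Slc2a4, Slc2a3 and Pck1 in the 3 adipocyte states, and each state's share of adipocyte-like nuclei (right), 1 point per library, CKO left of FLOX in each state, with the mean (bar) and SD (whisker, n = 3). State 1 has the highest levels of all 3 genes and holds 49.3 to 62.8% of CKO and 17.8 to 28.1% of FLOX adipocyte-like nuclei.

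With the states pooled, adipocyte-like nuclei were shallower in CKO. Their median was 8628, 5243 and 5891 UMIs in CKO libraries and 10202, 9470.5 and 9219 UMIs in FLOX libraries. Within states, CKO libraries 2 and 3 were the shallowest in each. CKO library 1 was the deepest of all in state 2 (median 12034 UMIs) and state 3 (14946.5 UMIs). When every nucleus was thinned to 3000 UMIs, which left out 48 to 464 shallower nuclei per CKO library and 86 to 314 per FLOX library, Slc2a3 was detected in 12.2, 15.1 and 19.7% of CKO adipocyte-like nuclei and 5.08, 5.57 and 6.95% of FLOX ones. Before thinning the shares were 21.7, 21.6 and 29.2% in CKO and 9.69, 10.6 and 12.0% in FLOX. Slc2a4 was detected in 15.5, 15.5 and 13.9% of thinned CKO nuclei and 9.47, 9.41 and 9.63% of thinned FLOX nuclei, and before thinning in 36.2, 27.8 and 25.8% and in 29.0, 24.9 and 23.7%. Pck1 was detected in 73.6, 78.6 and 74.97% of thinned CKO nuclei and 55.6, 52.8 and 65.8% of thinned FLOX nuclei, and before thinning in 83.7, 87.3 and 84.9% and in 71.9, 68.5 and 75.3%. After thinning the groups were apart for all 3 genes in the pooled class (exact permutation tests of 3 against 3 cannot go below 0.1). Only the members were thinned, so no share of all genes stands beside this or the state results below. In CPM without thinning, 21.5% of all genes tested in the pooled class had CKO above FLOX without overlap. Within single states the thinned shares stayed apart for Slc2a3 in each state and for Slc2a4 in states 1 and 3. They overlapped for Slc2a4 in state 2 and for Pck1 in every state. In state 1 the thinned shares of Pck1 were 92.0, 93.4 and 91.1% in CKO and 88.4, 86.8 and 92.0% in FLOX.

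ASPC-like nuclei were taken as a background of such shares for Pck1 and Slc2a4, on the assumption that they lack these genes. That assumption was not tested, and the background of adipocyte-like nuclei may differ. Thinning left out 744 to 1425 shallower ASPC-like nuclei per CKO library and 610 to 1389 per FLOX library. It kept 732 to 808 and 759 to 1180. Thinned in the same way, 2.60 to 4.46% of CKO and 2.36 to 3.43% of FLOX ASPC-like nuclei had a UMI of Pck1, and at most 0.620% and 0.932% had one of Slc2a4. Their median depth before thinning was 2502 to 2981 UMIs in CKO and 2733 to 3268 UMIs in FLOX. Slc2a3 was detected in 6.01 to 7.92% of CKO and 5.08 to 8.70% of FLOX ASPC-like nuclei. Since ASPC-like nuclei held Slc2a3 themselves (29.4 ± 6.73 CPM), that range is a comparison and not a background. The shares of thinned FLOX adipocyte-like nuclei with a UMI of Slc2a3 were not above that range, and those of thinned CKO adipocyte-like nuclei lay above it.

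In whole libraries, with all kept nuclei summed, none of the 10 members passed the test, in a comparison where 0.0414% of 19310 genes did (0.00518% higher and 0.0363% lower, with 5456 genes at an unadjusted p under 0.05). In such sums fewer nuclei of a type and less RNA per nucleus cannot be told apart. Slc2a3 had 40.5, 45.2 and 61.6 CPM in CKO and 16.3, 20.4 and 27.0 CPM in FLOX (log2 fold change 1.12, SE 0.229, adjusted p = 0.0615). Slc2a1 had 8.80, 6.42 and 7.52 CPM in CKO and 4.82, 4.01 and 4.24 CPM in FLOX (0.71, SE 0.162, adjusted p = 0.0639). Pck1 had 414, 581 and 558 CPM in CKO and 304, 323 and 409.5 CPM in FLOX (0.49, SE 0.164, adjusted p = 0.115). For these 3 the groups did not overlap, with CKO above FLOX, as for 25.5% of all genes tested (10.8% had CKO below FLOX), and for the other 7 they did. DESeq2 called all 3, with adjusted p of 0.000117, 0.00397 and 0.0377. With the replicate number as a block edgeR called Slc2a3 (1.13, adjusted p = 0.0300), among 696 genes higher and 442 lower. Without CKO library 2 edgeR called Slc2a3 (1.17, adjusted p = 0.0367) and Slc2a1 (0.81, adjusted p = 0.0225) higher and Irs1 lower (-0.71, adjusted p = 0.0122). How many of all genes were called by DESeq2, or without CKO library 2, is not given here. Those member calls therefore have no share of all genes beside them.

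When only adipocyte-like, ASPC-like, endothelial-like, mural-like and macrophage-like nuclei were summed, so that lymphoid nuclei were left out, the log2 fold change of Slc2a1 was 0.0074 (adjusted p = 0.990). In the same sum Slc2a4 (0.52) and Pck1 (0.83) were called higher, both at an adjusted p of 0.0462, and Slc2a3 was at 1.25 (adjusted p = 0.0619). The share of all genes called in that sum is not given here. Of the tested classes left out, NK-like, B-cell-like and T-cell-like nuclei had the highest mean levels of Slc2a1. B-cell-like and T-cell-like nuclei had larger shares of CKO than of FLOX libraries. Small untested classes and the 4811 unnamed nuclei were left out as well. Among the small classes, lymphoid-stroma-like nuclei averaged 37.5 CPM of Slc2a1 in CKO libraries (31 UMIs). Lymphatic-endothelial-like and epithelial-like nuclei averaged 25.2 and 17.1 CPM over the 6 libraries. The part of the nuclei left out in the whole-library result of Slc2a1 was not tested.

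In the 9 other classes tested, no member passed, and 5.07 to 10.9% of all genes tested in them had groups that did not overlap in a given direction. ASPC-like nuclei (0.267% of 13833 genes called) had Tbc1d4 at 132, 127 and 117 CPM in CKO and 91.3, 103 and 109 CPM in FLOX, without overlap (0.30, SE 0.0881, adjusted p = 0.223). Their Slc2a3 was 28.2, 29.7 and 32.2 CPM in CKO and 18.8, 27.8 and 39.5 CPM in FLOX, with the CKO values inside the FLOX range (0.09, adjusted p = 0.940). In macrophage-like nuclei (0.973% of 12540 genes called) Slc2a3 had 30.9, 29.6 and 42.3 CPM in CKO and 20.9, 24.0 and 24.6 CPM in FLOX, without overlap (0.58, SE 0.168, adjusted p = 0.131). Endothelial-like nuclei (0.124% of 10479 genes called) had Insr at 377, 408 and 529 CPM in CKO and 295, 375 and 296 CPM in FLOX (0.42, SE 0.144, adjusted p = 0.331). In mural-like nuclei no gene of 5300 was called by edgeR (240 at an unadjusted p under 0.05). There Irs1 had 251, 248 and 166 CPM in CKO and 330.0, 304 and 357 CPM in FLOX (-0.58, SE 0.201, adjusted p = 0.884), and Slc2a4 overlapped between the groups (-0.13, SE 0.305, adjusted p = 0.997).

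The lymphoid classes gave smaller sums. T-cell-like nuclei (4.46% of 6908 genes called) had Slc2a3 at 88.0, 86.6 and 90.4 CPM in CKO and 132, 97.6 and 134 CPM in FLOX (-0.49, SE 0.187, adjusted p = 0.146). Their Tbc1d4 had 99.0, 79.8 and 149.5 CPM in CKO and 56.4, 97.6 and 57.7 CPM in FLOX, with overlap (0.78, SE 0.283, adjusted p = 0.141). Without CKO library 2 Tbc1d4 passed (0.92, adjusted p = 0.0432), among 123 genes higher and 218 lower. Their Irs2 averaged 18.2 ± 1.38 CPM in CKO and 34.6 ± 4.33 CPM in FLOX, without overlap (-0.87, SE 0.351, adjusted p = 0.184). B-cell-like nuclei (0.0955% of 9425 genes called) had Insr at 195, 194 and 169.9 CPM in CKO and 241, 251 and 251 CPM in FLOX, without overlap (-0.40, SE 0.134, adjusted p = 0.277). In NK-like, monocyte-like and dendritic-like nuclei only 1, 2 and 3 of the 10 members had enough UMIs to be tested. Of all genes tested in them, edgeR called 0.181% of 1659 in NK-like nuclei and none of 2878 in monocyte-like nuclei (145 at an unadjusted p under 0.05) or of 2497 in dendritic-like nuclei (238).

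Slc2a3 was the member whose genotype effect differed between classes. Its log2 fold change in adipocyte-like nuclei exceeded that in ASPC-like nuclei by 1.58 (adjusted p = 0.0101) and that in macrophage-like nuclei by 1.18 (adjusted p = 0.0294). Without CKO library 2, CKO library 3 or FLOX library 1, the second difference was 1.05 to 1.11 (adjusted p of 0.0546 to 0.133). The same fit gave 2.14 against endothelial-like nuclei (adjusted p = 0.0372), but Slc2a3 had only 10 CKO and 32 FLOX UMIs there, was not tested in that class alone and entered the fit through the adipocyte-like nuclei, so that value supports nothing. The test was an interaction term in edgeR with library as a block, by which 1.09%, 0.828% and 0.916% of genes were called in the 3 comparisons. The other 9 members did not pass in any of them. For Pck1 the differences were 0.56, 0.59 and 0.80 (adjusted p = 0.118, 0.111 and 0.244). With a single adipocyte state in place of the whole class, the Slc2a3 difference passed only for state 3 against ASPC-like nuclei (1.37, adjusted p = 0.0119, 0.262% of genes called), while the other 8 pairings gave 0.29 to 1.86 with adjusted p of 0.131 to 0.513. In these pairings 0.682 and 0.351% of genes were called for states 1 and 2 against ASPC-like nuclei. Against macrophage-like nuclei the shares were 0.533, 0.238 and 0.42% for states 1, 2 and 3, and against endothelial-like nuclei 0.185, 0.305 and 0.313%.

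**Figure D5:**
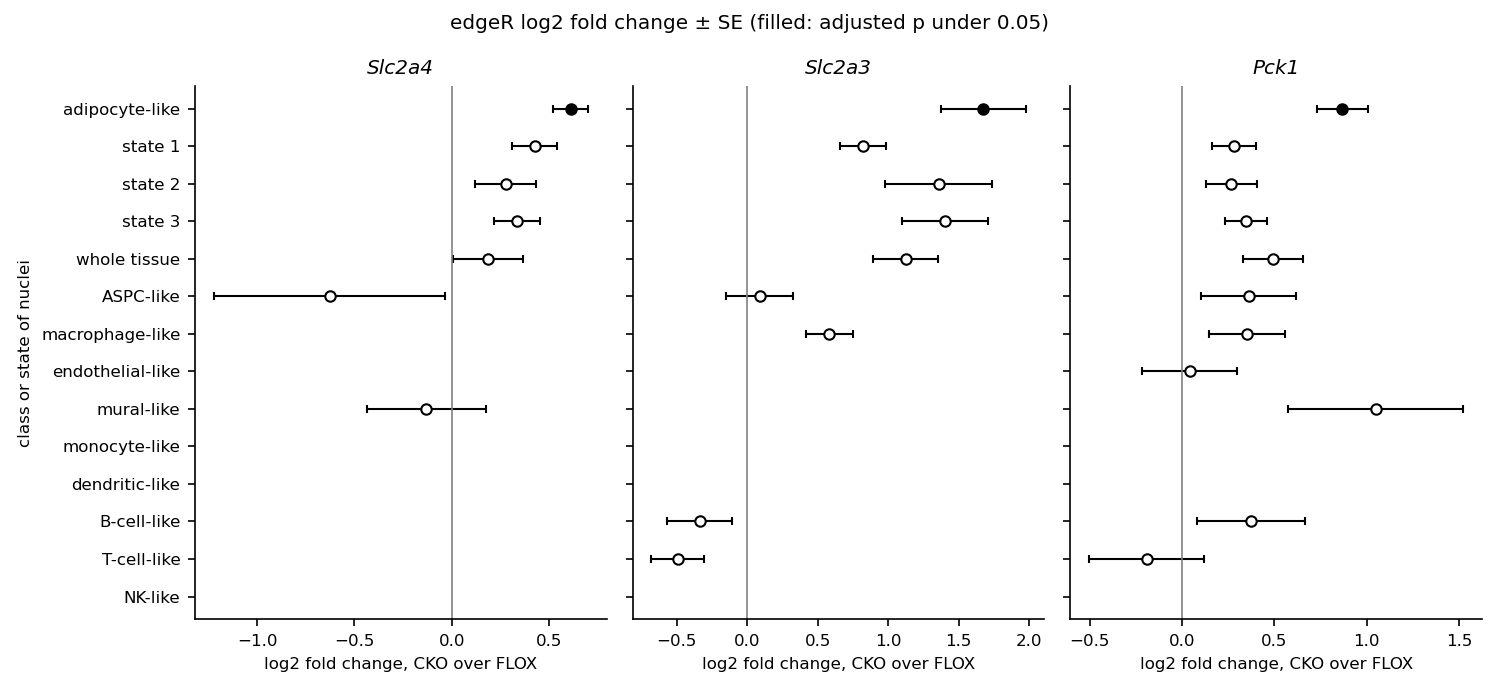
Log2 fold change of CKO over FLOX (± SE) of Slc2a4, Slc2a3 and Pck1 in each class, state and the whole tissue, from edgeR. Filled points passed the adjusted threshold of 0.05, which only the adipocyte-like row did, and a row with no point means that the gene had too few UMIs there to be tested.

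The rest of the pathway was read from 9 lists of 102 other genes. In adipocyte-like nuclei 98 of these were tested, 1 rose and none fell, against 1.11% and 1.39% of all genes, and the median log2 fold change was -0.04, beside 0.02 over all genes tested. The gene that rose was Vamp2, a vesicle protein on which GLUT4 vesicles fuse with the surface. It had 28.7, 28.4 and 30.2 CPM in CKO and 18.8, 18.7 and 19.3 CPM in FLOX, in tight groups far apart (0.55, SE 0.0783, adjusted p = 0.0244). Its call was lost in the same 4 fits with a library left out as those of the members, and within states its log2 fold change was 0.40 to 0.49 with adjusted p of 0.167 to 0.298.

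None of the other lists held a called gene in adipocyte-like nuclei. The 2 tested relatives of the receptor both had negative fold changes (median -0.15), and 1 of 7 other subunits of phosphoinositide 3-kinase had a positive one (median -0.14). The 6 tested docking proteins had a median of 0.11, the 14 genes of the Akt and mTOR branch 0.06 and the 13 of the transcriptional arm (FOXO and SREBP factors among them) 0.13. The 15 brakes on the pathway, such as phosphatases, had a median of -0.06, the 17 genes of glucose use and glyceroneogenesis 0.02 and the 5 tested hexose transporters outside the members -0.09. The 19 genes of GLUT4 vesicle traffic, Vamp2 included, had a median of -0.07.

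In state 2 a single pathway gene passed. Grb10, an adaptor that binds the insulin receptor and restrains its signal, had 158, 194 and 213 CPM in CKO and 99.0, 88.5 and 109 CPM in FLOX (0.91, SE 0.133, adjusted p = 0.0430). It had 97.6, 192 and 140.0 CPM in state 1 of CKO libraries against 67.9, 57.8 and 57.6 CPM in FLOX libraries (1.22, SE 0.241, adjusted p = 0.143). In state 3 it had 122, 143 and 177 CPM in CKO against 113, 101 and 109 CPM in FLOX (0.41, SE 0.132, adjusted p = 0.290), and in the pooled class 126, 175 and 172 CPM against 101, 91.1 and 101 CPM (0.62, SE 0.132, adjusted p = 0.0544). All CKO libraries lay above all FLOX libraries in each state. The call in state 2 was lost without any library other than CKO 1, with adjusted p of 0.0570 to 0.192, and under another random start of the clustering (0.81, adjusted p = 0.0936).

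In T-cell-like nuclei, with 62 pathway genes tested, Tbc1d1, Igf1r and Rhoq passed, where 1.24% of all genes tested were higher and 3.21% lower. Tbc1d1, the close relative of Tbc1d4, rose, with 550.2, 529.9 and 525 CPM in CKO and 348, 410.1 and 426 CPM in FLOX (0.45, SE 0.126, adjusted p = 0.0456). Igf1r, the receptor of insulin-like growth factor 1, fell, with 342, 369 and 365 CPM in CKO and 457, 443 and 666 CPM in FLOX (-0.57, SE 0.142, adjusted p = 0.0207). Without FLOX library 3 its log2 fold change was -0.31 (adjusted p = 0.274). Rhoq, a small GTPase of GLUT4 traffic, fell as well, with 38.5, 44.2 and 38.1 CPM in CKO and 65.8, 65.1 and 82.1 CPM in FLOX (-0.86, SE 0.246, adjusted p = 0.0473). Tbc1d1 and Rhoq lost their calls in 5 and 6 of the 6 fits with a library left out, with adjusted p up to 0.237 and 0.244. With nuclei classed by their own marker scores, none of the 3 passed. Rhoq averaged 55.6 CPM in T-cell-like and 238 CPM in adipocyte-like nuclei. The 10 adipocyte markers summed to 281, 365 and 359.5 CPM in CKO T-cell-like nuclei and 742, 443 and 410.3 CPM in FLOX ones, and the part of adipocyte RNA in the Rhoq result was not tested. The other 8 classes, and states 1 and 3, had no pathway gene past the threshold.

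Across the 12 states and classes, the genes whose mean levels ran most like each member's were named by Pearson's r of log2(CPM + 1), as a description of the same 6 libraries. For Pck1 they were G0s2, Car3 and Nnat (all at 0.98), for Slc2a4 Aoc3, Trarg1 and Gm12526 (0.95 to 0.96), and for Akt2 Nrg4, Acsm5 and Adrb3 (0.97 to 0.98). For Slc2a3 they were Snhg17, Gnl3 and Smarcc1 (0.89 to 0.91), and for Slc2a1 Zfp959, Ndufa3 and D8Ertd738e (0.94 to 0.96). For Insr they were Dmxl2, 4732471J01Rik and Etfrf1 (0.94 to 0.96), for Irs1 Fat1, Sox5os4 and Hoxc6 (all at 0.97) and for Irs2 Elmod3, Pmm1 and Parp3 (0.93 to 0.94). Tbc1d4 (Lrp12, Rhobtb1 and Apip, 0.88 to 0.93) and Pik3r1 (Rtn4rl1, Mipep and Pard6g, 0.87 to 0.89) had the least close partners.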

How the data were processed

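Libraries were made with the 10x Genomics 3′ kit from nuclei of subcutaneous fat, per the labels' protocols, and the authors deposited per library a matrix of UMI counts per gene and barcode. Cell Ranger 7.1 and the builds mm10 and GRCh38 are named per the submitters' processing notes, and all 32285 genes counted are mouse genes. Whether intronic or antisense reads were counted is not given in the sources used here. The labels' protocols give 3 mice per genotype without tying each library to a mouse, so p-values measure the spread between these libraries.

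Barcodes under 500 detected genes or over 5% mitochondrial UMIs were left out, and Scrublet's highest-scoring barcodes were removed as doublets at 0.8% per 1000 barcodes. Clustering (scanpy 1.11.5, igraph 0.11.9) used 3000 variable genes without the members and pathway genes, 40 principal components, 20 neighbours and Leiden resolution 1, keeping the best of 100 random starts. A cluster was named when at least 3 markers and 50% of 1 of 19 lists were 2-fold above the other clusters (5 CPM added) and under 33% of any unrelated list was, unless 5 of its 10 leading genes were its own markers. This rule was settled after the markers' values were seen. It named 51415 of 56226 nuclei, and 91.7% of the named nuclei had the same class by their own marker score.

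UMI counts were summed per library and class and tested with edgeR 4.0.16 (quasi-likelihood, TMM factors, low-count filter, R 4.3.3) in classes of at least 20 nuclei per library, with Benjamini-Hochberg adjustment over all genes of the class. An interaction term, with library as a block, compared fold changes between classes or states. Alternatives used DESeq2 1.42.0, limma 3.58.1, library totals, no filter, other clusterings, depth limits, a removed span trend and libraries left out. The steps were tested on simulated data. Levels are CPM of the summed counts, and intervals cover counting error only. Replicate numbers in the labels carry no stated meaning. Deviations of same-numbered libraries from their group means correlated at 0.41, 0.14 and 0.12 in whole libraries. In adipocyte-like nuclei the values were -0.0035, 0.19 and 0.046. In whole libraries CKO library 3 correlated best with FLOX library 2, so these values do not show that the numbers pair the libraries. Blocked values are given beside the main fit, which has no block.

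The members, gene lists and tests were chosen with earlier results of these data known. Named are the 10 members, pathway genes past an adjusted p of 0.05, the 3 genes most like each member among those of at least 20 CPM, and the 3 leading genes of a cluster. The result of 1 pathway gene is not reported here. Adipoq was chosen as a marker. Positions are from GENCODE on mm10 (99.8% of gene identifiers matched), and the sequence and motif shares are from RefSeq (GRCm38.p6).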

Additional observations from a re-analysis of the deposited data

Results flagged for a closer look

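The genotype difference of Slc2a3, the GLUT3 gene, was not the same in all classes of nuclei, by a test of the difference itself. Its log2 fold change of CKO over FLOX was larger in adipocyte-like than in ASPC-like nuclei by 1.58 (adjusted p = 0.0101) and than in macrophage-like nuclei by 1.18 (adjusted p = 0.0294), in edgeR fits over all genes with library as a block. In endothelial-like nuclei Slc2a3 was at 2.89, 5.08 and 2.50 CPM in CKO and 5.61, 4.53 and 5.01 CPM in FLOX, too low to be tested in that class alone. The fitted difference from them of 2.14 (adjusted p = 0.0372) therefore supports nothing. The adipocyte-like class consisted mostly of state 1 in CKO libraries 2 and 3 and mostly of states 2 and 3 in FLOX libraries, and Slc2a3 differed between these states. The part of this make-up in these differences was measured only by the fits with a single state, of which 1 of 9 passed.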

How the results depend on the processing

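Of 619 single values recomputed under the alternatives, 518 kept their side of the threshold, 84 were no longer past it, 17 newly passed and none was called with the opposite sign. Most of the 619 were not past the threshold as reported and had no call to lose, so the 84 all fall on the smaller part that was. Among the 518, 35 changed sign and were called in neither fit. In adipocyte-like nuclei the number of members higher in CKO, 3 as reported, was 0 with the neighbouring unnamed cluster added, 0 with the span trend removed, 0 with equal weight to each state, and 0 to 3 with a library left out. In whole libraries it was 3 with DESeq2, 1 with the replicate block, 2 with adipocyte-like, ASPC-like, endothelial-like, mural-like and macrophage-like nuclei only, and 0 to 2 with a library left out, against 0 as reported, and 0 to 1 members were lower. Within the states, where none passed as reported, 3 did with DESeq2, 1 without the filter on low counts, 1 with the replicate block, 1 in nuclei of 3000 to 8000 UMIs and 0 to 2 with a library left out, all of them results of Slc2a3. Without that filter 1 member passed in macrophage-like nuclei (Slc2a3) and 2 in the remaining classes (Irs1 and Tbc1d4 in T-cell-like nuclei), and 0 to 1 did with a library left out. Without the filter 265 genes were called higher and 318 lower in T-cell-like nuclei, where Irs1 had too few UMIs to be tested as reported. Where no count of all genes called stands beside the member counts here, it is not given. The Slc2a3 difference between adipocyte-like and ASPC-like nuclei lost its call with state 1 (0.74) or state 2 (1.20) in place of the class. That with macrophage-like nuclei lost it by marker score (1.28) and with states 1, 2 and 3 (0.29, 0.70 and 0.83), and ranged from 1.05 to 1.34 with a library left out (adjusted p of 0.0191 to 0.133, past the threshold in 3 of 6 fits). That with endothelial-like nuclei lost it with nuclei of at least 1000 genes (2.24), by marker score (1.95) and with states 1, 2 and 3 (1.31, 1.81 and 1.86), and ranged from 1.70 to 2.67 with a library left out (adjusted p of 0.0160 to 0.247, past the threshold in 2 of 6 fits). The cause of these changes was not tested. Scaling by library totals in place of TMM factors moved the median log2 fold change of all genes in adipocyte-like nuclei to 0.0858, against 0.016 as reported, and the calls over all genes to 305 higher and 147 lower, against 175 and 220. There DESeq2 called 531 higher and 786 lower genes, and the replicate block 91 and 213. No call of a member was lost under the replicate block, which rests on a shared number only. The first random start of the clustering and the alternatives for the Slc2a3 differences were chosen after seeing the data. Levels of Slc2a1 under 5 CPM in adipocyte-like nuclei limit what can be seen of that gene.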

Other observations

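A few nuclei outside the tested classes held these genes at levels of their own. Skeletal-muscle-like nuclei, 70 in CKO library 2, 1 in CKO library 3 and 36 in FLOX library 3, had Slc2a4 at 410.2 CPM in CKO library 2 and 299.7 CPM in FLOX library 3, above its mean in every tested class. In both libraries they also had more Slc2a3 (129 and 149.9 CPM) than the adipocyte-like nuclei of the same library. Their Insr was at 444 and 465 CPM and their Pck1 at 11.4 and 7.49 CPM.

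Epithelial-like nuclei, too few in some libraries to be tested, had Irs1 at a mean of 511 CPM and Pik3r1 at 882 CPM over the 6 libraries, above the means of all tested classes, with no UMI of Irs1 in the 5 nuclei of CKO library 3. They had no UMI of Slc2a4 among 1055460, which allows a level of up to 2.84 CPM, and lymphatic-endothelial-like nuclei had none of Slc2a3 among 625021, which allows up to 4.80 CPM (3 counts, counting error only). A cluster of 3326 nuclei, 2967 of them in FLOX library 3, had a median of 1236 UMIs and the leading genes Slco1b2, Alb and Cps1. Its profile was closest to the adipocyte-like class (Pearson's r of 0.93 across genes, which are not independent). At Leiden resolution 2 those leading genes led a separate cluster of only 43 nuclei, 8 of them in FLOX library 3. A cluster of 3185 nuclei there, 2885 of them in FLOX library 3, was led by 4833423E24Rik, Cst6 and Cpa3. The mast-cell list was reached in the cluster of 3326 nuclei beside another, so it stayed unnamed and outside the adipocyte-like class as reported. The alternative that adds it counts its nuclei in the class. Classing by marker score gives every kept nucleus a class, so its nuclei could enter there too.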
